A study of Homo sapiens with 2 samples.

Results

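Cytosolic ribosomal protein genes, which encode the protein parts of the ribosome, were described by the N6-methyladenosine (m6A) sites listed in their messenger RNA. The members are the genes in either site list whose symbol is RPL or RPS followed by a number, with an optional A, X, L or AL, and RPSA, RPLP0, RPLP1 or RPLP2. There were 40 such genes among 11406 named genes, and they held 126 of 93541 listed sites. In the RefSeq annotation 82 symbols fit the same rule. The other 42, 25 of the large subunit and 17 of the small subunit, had no listed site, which gives no bound on their methylation. RPLP0, RPLP1 and RPLP2, the stalk proteins, were among these.

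Ribosomal proteins are named for the large (RPL) or small (RPS) subunit in which they sit around the ribosomal RNA. Their mRNAs are short and abundant, and typically begin with a C followed by a run of C and T letters, the terminal oligopyrimidine tract through which growth signals control their translation. m6A is written on mRNA by the METTL3 and METTL14 complex, typically at an A that is followed by C and preceded by G or A. A different mark, in which the first nucleotide after the cap is an A that carries a methyl group on the base and another on the ribose, also resists the reaction used here.

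The measurements came from HEK293T, a cell line that was made from embryonic kidney of a human and is labelled wild type and day 0 here. There was 1 group with 2 replicates, and no second treatment, genotype or line. GLORI converts unmethylated A to a base read as G, while m6A is still read as A. The level of a site is the share of A among its A and G reads. The lists hold methylation and not expression, so the cell type was not checked against its markers.

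Both replicates listed 76 of the 126 member sites, in 32 of the 40 genes, and these are called shared. That is 60.3% of member sites, near the 64.6% of all listed sites that were shared. In the whole series 9521 of 11406 named genes had a shared site. Replicate 1 listed 99 member sites and replicate 2 listed 103. Levels of shared member sites ran from 11.0% to 88.3%, with a median of 26.0% and quartiles of 17.5% and 45.2%, where the median over all shared sites of the series was 44.6%. Of the member sites 25 (32.9%) lay under 20%, against 15.2% of all shared sites. At the other end 17 (22.4%) reached 50%, against 44.8% of all shared sites. A level of 80% was reached at 2 member sites, in RPS29 and RPL37.

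Sites were unevenly spread over the genes. A single shared site was found in 18 of the 32 genes (56.2%), against 23.5% of all genes with a shared site. At least 4 shared sites were found in 5 genes, RPL28, RPL13, RPS24, RPL13A and RPL37 (15.6%, against 50.6% of all genes). These 5 genes held 38 of the 76 shared sites. At least 10 were found in RPL28 and RPL13 (6.25%, against 19.1% of all genes).

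At shared member sites the replicate levels could not be told apart beyond read sampling. Fisher's exact test on A and G counts, adjusted over all 60462 shared sites, called 0 member sites and 0.0% of all shared sites. At an unadjusted p under 0.05 it found 1 member site of 76 (1.32%) and 3.06% of all shared sites. A chi-square test found 0 after adjustment. Before it, the test found 3 of the 76 member sites and 2590 of all 60462 shared sites. Averaged over sites, the chi-square between replicates was 0.829 for members and 0.931 for all shared sites, where sampling alone gives about 1. These tests saw only sites that passed the limits of both lists, while a mean of about 1 holds for sites that were not selected. They cannot show that the libraries differ by read sampling alone. The pair of libraries is treated here as 1 sample. Below, values stand for each replicate or are their mean with no SD, and intervals are 95% Wilson intervals on the summed reads, which cover counting error only. The labels do not say that the replicates came from separate cultures.

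Depth set how precisely a level was known. At least 300 reads in both replicates covered 24 member sites in 12 genes, 31.6% of the members' shared sites against 2.83% of all shared sites. At these deep sites the median level was 18.8%, and it was 26.2% at the other sites of the series that passed the same minimum. These sets are not of like depth: 15 of the 24 member sites had at least 1000 reads, against 233 of all 1713. The replicates differed by at most 3.83 percentage points at any of the 24. The members made up 1.40% of all sites with 300 reads and 6.44% of the 233 sites with at least 1000.

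The deepest sites lay in RPL41, which encodes a very short, basic protein of the large subunit. At chr12:56117608 (plus strand, GRCh38) the level was 61.4% of 11943 reads in replicate 1 and 60.8% of 13934 in replicate 2 (interval 60.5 to 61.7). At chr12:56117748, 140 nt downstream and 219 nt before the annotated gene end, it was 68.3% of 11407 reads and 68.0% of 13238 (67.6 to 68.7). The intervals of the 2 sites did not overlap, and the downstream site had the higher level in both libraries. Conversion at each of the sites was not tested. RPL41 also had the lowest conversion of any member with a shared site, 95.7% as the mean of the authors' values, against a median of 97.9% over these members.

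RPL13A, which encodes a large-subunit protein also known for silencing inflammatory mRNAs in monocytes, had 5 deep sites within 416 nt in the last part of the gene. A pair of them was high. The level at chr19:49491827 (plus strand) was 73.6% of 2748 reads and 74.9% of 3330 (73.2 to 75.4), and at chr19:49492115 it was 61.6% of 4269 reads and 60.9% of 5095 (60.2 to 62.2). The other 3, at 49491803, 49492073 and 49492219, had mean levels of 11.5%, 14.6% and 11.5%. The site at 11.5% and the site at 74.3% were 24 nt apart, so neighbouring adenosines of the same mRNA differed far beyond counting error.

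RPL13, a large-subunit protein, had 10 shared sites at a mean of 37.0% ± 1.1 (counting SE, 1 sample). The levels of 6 sites were measured with at least 300 reads. In replicate 1 and replicate 2 they were 46.0% and 45.9% at chr16:89563056 (plus strand), 23.8% and 22.4% at 89563110, and 27.6% and 26.5% at 89563144. They were 61.8% and 62.1% at 89563182, 39.1% and 38.8% at 89563247, and 26.8% and 25.3% at 89560666 near the gene start. High and low sites alternated along a short stretch: the 61.9% site (59.8 to 64.0) lay 38 nt from the 27.0% site (25.5 to 28.5). The remaining 4 shared sites had 15 to 161 reads in either replicate. Their mean levels were 62.9% at 89563302, 45.3% at 89563778, 21.6% at 89560659 and 17.4% at 89564147.

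RPL29, a large-subunit protein, had the highest of the deep sites, with 74.4% of 461 and 75.4% of 558 reads at chr3:51993720 (minus strand; 72.2 to 77.5). Deep sites in RPL3, RPL36, RPL4 and RPS24 were weakly methylated. RPL3, whose protein reaches towards the peptidyl transferase centre, had 3 sites on chromosome 22 (minus strand) with 14.1% of 4499 and 14.7% of 5277 reads at 39313695, 11.2% of 1543 and 12% of 1741 at 39315473, and 15.7% of 3003 and 14.6% of 3348 at 39317516. RPL36, a large-subunit protein, had 14.4% of 6765 and 13.7% of 8029 reads at chr19:5691617 (plus strand), 258 nt before the gene end. RPL4, whose protein lines part of the exit tunnel, had 18.4% of 2947 and 18.3% of 3376 reads at chr15:66501025 (minus strand). The small-subunit gene RPS24, which is mutated in some families with Diamond-Blackfan anaemia, had 18.1% of 1204 and 20.4% of 1365 reads at chr10:78035625 (plus strand). The levels of the deep sites in these 4 genes stayed under 21% in both replicates. Sites with fewer reads in RPL36, RPL4 and RPS24 reached mean levels of 26.9%, 26.0% and 68.1%. The authors' conversion in these 4 genes lay between 97.3% and 98.1%. The lists begin at a level above the unconverted share of each of these genes, so any listed site exceeds that share. The comparison therefore says nothing of the weak sites, and conversion at single sites was not tested.

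**Figure D1:**
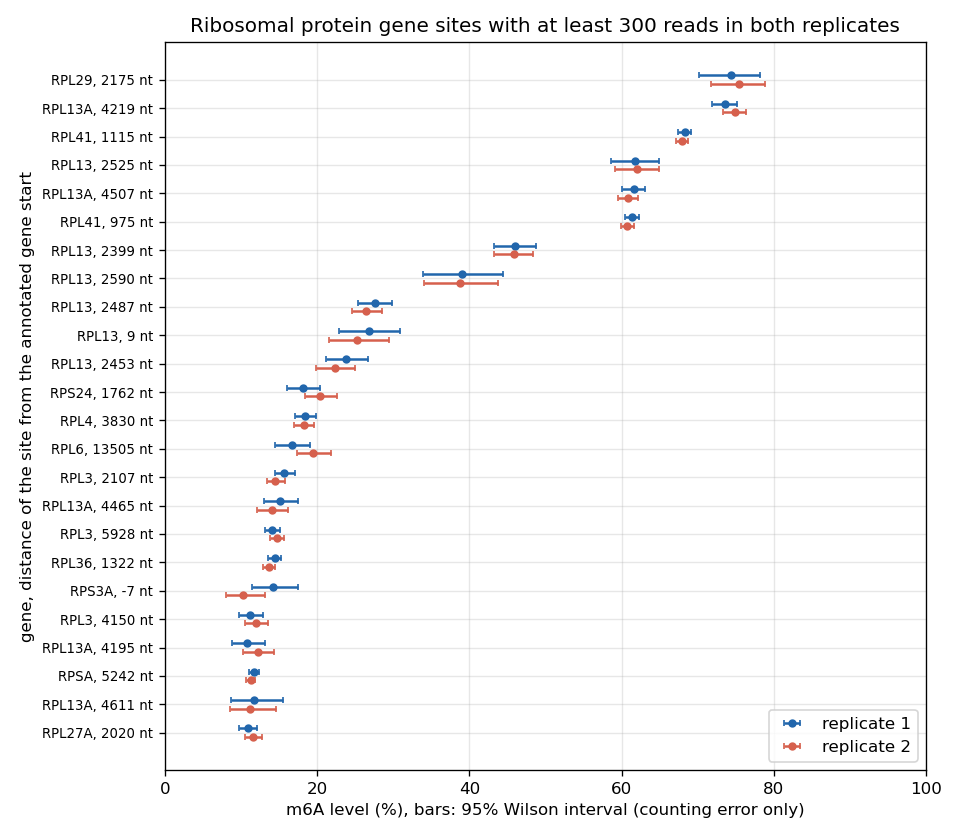
Levels in percent of the 24 deep member sites (300 reads or more in each replicate), each named by its gene and its distance from the annotated gene start; points are replicates and bars 95% Wilson intervals. The intervals of both replicates overlap at each of the 24 sites, and 6 sites lie above 60% while 13 lie under 20%.

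Single-site members, those with 1 shared site, were not in general deep. Their 18 sites had a median of 58 reads in replicate 1 and 79.5 in replicate 2, and 4 had at least 300 in both. The deepest was in RPSA, a small-subunit protein also known as a laminin receptor, with 11.7% of 9179 and 11.3% of 10781 reads at chr3:39411962 (plus strand; 11.0 to 11.9). RPL27A, a large-subunit protein, had 10.9% of 2578 and 11.6% of 3215 reads at chr11:8684812 (plus strand; 10.5 to 12.1). RPL6 had 16.7% of 1001 and 19.5% of 1153 reads at chr12:112405330 (minus strand; 16.6 to 19.9), 149 nt before the gene end. RPS3A had 14.2% of 508 and 10.3% of 561 reads at chr4:151099621 (plus strand; 10.3 to 14.3). All 4 had mean levels under 20%, and those of RPSA, RPL27A and RPS3A lay close to the 10% at which the lists begin. Each of these 4 genes also had at least 1 site that a single replicate listed.

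The next single sites by depth had between 86 and 196 reads. RPS27, a zinc finger protein of the small subunit, had 19.6% and 17.3% at chr1:153990915 (plus strand), and RPS15 had 45.4% and 45.0% at chr19:1438367 (plus strand). RPL19 had 26.3% and 14.3% at chr17:39200313 (plus strand), and RPS19, the gene most often mutated in Diamond-Blackfan anaemia, had 10.5% and 21.6% at chr19:41872564 (plus strand). Replicates differed by about 11 to 12 points in the last pair, and Fisher's exact test did not separate them (adjusted p = 1 over all shared sites for both). Its unadjusted p was 0.0506 in RPL19 and 0.0625 in RPS19, so the replicates were not shown to be alike there. The highest single sites were thinly covered: RPL36AL had 66.7% of 33 and 73.7% of 38 reads, and RPS15A had 65.0% of 60 and 61.9% of 42. As groups, single sites had a median level of 19.3% (9 of 18 under 20%) and the 38 sites of the 5 many-site genes had 29.2% (9 of 38 under 20%). The groups also differed in position: 9 of 18 single sites lay within 50 nt of the annotated start, against 2 of 38. Over all shared member sites the median level was 21.0% within 50 nt of the start and 28.4% elsewhere. Position and number of sites were not separated.

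RPL28, the member with the most sites, had 12 shared sites at a mean of 34.5% ± 1.2 (counting SE, 1 sample). Their levels ran from 14.1% to 79.5%, and reads from 27 to 115 in replicate 1 and from 33 to 119 in replicate 2. The highest, at chr19:55387513 (plus strand), had 75.8% of 62 and 83.1% of 71 reads (72.1 to 85.7), and its neighbour 8 nt upstream had 52.6% of 57 and 56.3% of 71 (46.1 to 63.1). The 12 sites spread over 4325 nt, from 1463 to 5788 nt after the annotated start. Reads at these sites were few for the gene, whose coverage in the authors' lists was 371.0 in replicate 1 and 428.6 in replicate 2. The site at 55388456, with 27.9% and 45.8%, was the only member site with an unadjusted Fisher p under 0.05 (p = 0.0432, adjusted p = 1).

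RPS24 combined both kinds of site. Next to its deep site stood sites at 78035699 and 78035711, 12 nt apart, with 11.6% of 155 and 10.4% of 135 reads, and 39.8% of 166 and 34.2% of 152. About 19 kb downstream 4 sites lay between 78054850 and 78055177, with 32 to 50 reads in either replicate and mean levels of 50.9%, 29.4%, 68.1% and 55.1%. RPL37, a zinc-binding large-subunit protein, had its highest site at chr5:40827879 (minus strand), with 82.0% of 61 and 85.0% of 80 reads (76.7 to 88.9). Its other 3 shared sites, at 40827894, 40827913 and 40825653, had 25.3%, 23.3% and 26.7%. The sites of these genes thus ranged from low to high within short distances, as in RPL13 and RPL13A.

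Reads at a site were then set against the coverage of its gene in the authors' lists. The sources used here do not say how that coverage was computed. At 45 of the 76 shared member sites (59.2%), in 23 genes, the site had under 20% of the gene coverage, against 0.848% of all shared sites in named genes. The median site had 16.0% of its gene's coverage among members and 140.0% over all named genes. Members are far more covered than most genes, with a median gene coverage of 880.0 against 31.9 over all genes with a shared site. Among genes with a coverage of at least 500, the share under 20% was 48.9% in members (22 of 45 sites; 35.0 to 63.0) and 20.4% in other genes (103 of 504 sites in 122 genes; 17.1 to 24.2). These intervals did not overlap, but sites of a gene share its coverage and are not independent, and the difference was not tested.

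The genes differed in this measure. In RPL28, 11 of 12 sites had under 20% of the gene coverage, and in RPL13 5 of 10, in RPS24 4 of 7 and in RPL37 3 of 4. In RPL13A none of 5 did, with sites between 27.1% and 334.0%. The deep sites of RPSA, RPL36, RPL4 and RPL27A had 459.0%, 399.0%, 380.0% and 379.0% of the gene coverage. Sites at or above the gene coverage (13 sites in 10 genes) had a median level of 18.4%, and sites under 20% of it had 27.8%. A site with few reads needs a higher level to reach 5 A reads, so these medians do not separate level from depth.

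**Figure D2:**
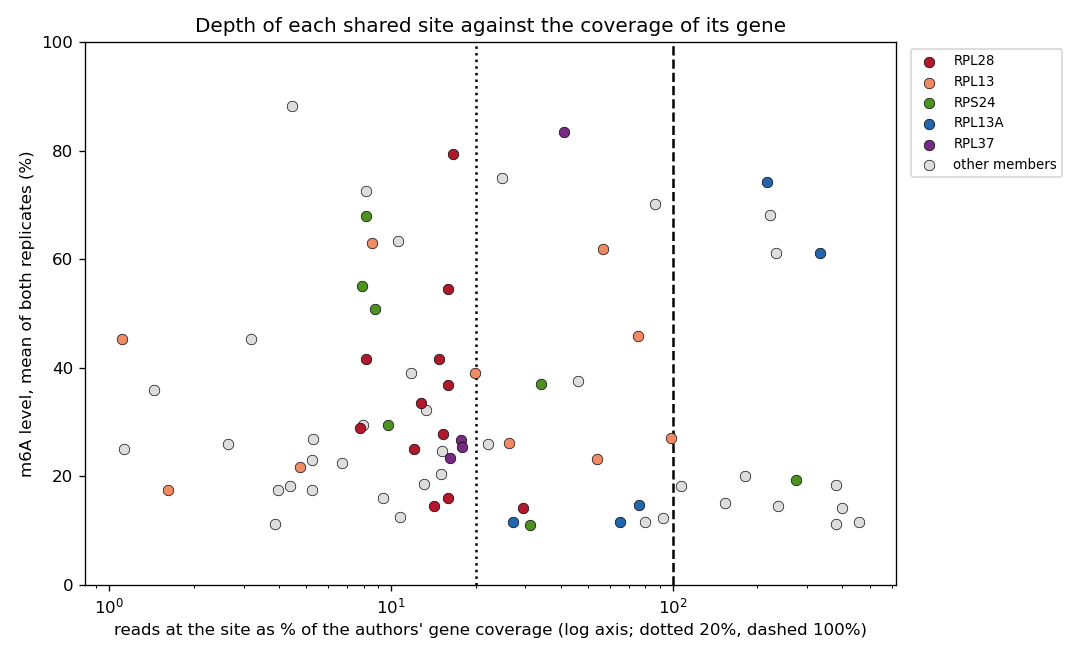
Each point is a shared member site, with its reads in percent of the authors' gene coverage on a log axis and its level in percent on the vertical axis; lines mark 20% and 100% of the gene coverage. RPL28 lies almost wholly left of the 20% line, whereas RPL13A lies right of it and RPL13 and RPS24 fall on both sides.

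A group of member sites lay at the 5' end of the gene. Within 50 nt of the annotated start there were 12 shared sites in 11 genes, 15.8% of the members' shared sites against 1.37% of all shared sites in located genes. Within 5 nt there were 6, in 6 genes (7.89%, against 0.863%). Part of this gap goes with coverage: among genes with a coverage of at least 500, the share within 50 nt was 20% in members (9 of 45; 10.9 to 33.8) and 9.42% in other genes (47 of 499; 7.16 to 12.3), and these intervals overlap. Counted by gene, 34.4% of all members with a shared site, at any coverage, had such a site. Among other genes with a coverage of at least 500 it was 34.7%, so the gene counts are not matched for coverage. Start sites were not shown to be particular to ribosomal protein genes, and the differences were not tested.

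Letters around these sites came from RefSeq's promoter windows (GRCh38.p14), which run from 250 bases before to 50 after a start and matched 34 of the 40 members. They are shown because the letter on either side of the A tells the usual m6A context from others; the 5 letters in capitals are centred on the listed A.
RPL10A (chr6:35468389-35468413, plus strand): gcaagacatgCTAGTctcttttccg
RPL9 (chr4:39458910-39458934, minus strand): cgtaatgacgACAGAcgttctttct
RPS28 (chr19:8321484-8321508, plus strand): ccgaagcacgTGACTcctctccgcc
RPL13 (chr16:89560647-89560671, plus strand): tgctatcatcCCAGAgtgcattgcg
RPL13 (chr16:89560654-89560678, plus strand): atcccagagtGCATTgcggggccgc
RPS27L (chr15:63157463-63157487, minus strand): gatgccgagcGCAGAtcgcttgcag
RPS3A (chr4:151099609-151099633, plus strand): cgcgcgactcCCACTtccgcccttt
RPS15 (chr19:1438355-1438379, plus strand): ggacatgccgGCAGTctcgcgataa
RPL32 (chr3:12841553-12841577, minus strand): ttacgacccaTCAGCccttgcgcgc
RPL19 (chr17:39200301-39200325, plus strand): cgggcccgagCGAGCtctttccttt

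In RPL10A, RPL9 and RPS28 the listed A was the annotated first nucleotide itself. RPL10A, a large-subunit protein, had 17.9% of 56 and 16.9% of 71 reads there, RPL9 had 21.7% of 23 and 23.3% of 43, and RPS28, a small-subunit protein, had 21.8% of 55 and 27.6% of 58. RPL13 and RPS27L, a paralog of RPS27 known as a p53 target, had a site 2 nt after the start, with 27.5% of 80 and 15.7% of 89 reads in RPL13 and 25% of 36 and 15.2% of 33 in RPS27L. RPL23A had 37.5% of 16 reads at its first nucleotide in replicate 2 alone. In RPL32 the site was 17 nt after the gene start and was the start of another RefSeq window of the gene. All 12 levels lay between 12.3% and 45.2%, with a median of 21.0%, so none of these sites was among the highly methylated ones.

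Of the 10 shared start sites with a window, 2 were followed by C (NNACN), in RPS28 and RPS3A, and 8 had C or T before the A. Those of RPS15 and RPS3A lay upstream of the annotated start, at -29 and -7 nt. RPL27 and RPL15 had shared sites further than 50 nt from the gene start but near the start of a window. With these, 4 of 13 member sites were followed by C (30.8%) and 11 had C or T before. Among other genes' shared sites within 50 nt of a start (549 with a window), 35.3% were followed by C and 77.4% had C or T before. Among those further than 50 nt (791), it was 78.0% and 26.9%. For scale, 21.2% of all A letters within 50 nt of the start in the 35116 windows were followed by C and 44.7% had C or T before. With 10 or 13 member sites these shares are imprecise, and their difference from other genes was not tested. All 2600 listed sites of the series that fell in a window stood on an A.

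Starts of 5 members with deep sites further inside the gene follow, chosen after their letters were seen, and each begins with a run of C and T. Not all members with deep sites do: the RefSeq starts of RPL4 and RPL6 have no run of more than 1 such letter. Here the capitals mark the run of C and T that begins at the annotated start.
RPL41 (chr12:56116628-56116652, plus strand): cctttCTCTCggccttagcgccatt
RPL13A (chr19:49487603-49487627, plus strand): tcctcCTTTTCCaagcggctgccga
RPSA (chr3:39406715-39406739, plus strand): cctgtCTTTTCCgtgctacctgcag
RPL27A (chr11:8682787-8682811, plus strand): ccttcCTTTTTCgtctgggctgcca
RPL36 (chr19:5690290-5690314, plus strand): ccagcCCTTCCgccacggccgtctc
A start with C followed by at least 4 C or T letters was found in 46 of the 80 windows of ribosomal protein symbols (57.5%), against 4.07% of all windows. A run of 7 such letters, C first, within 30 nt on either side of the start, on the strand of the gene, was found in 13 of 15 windows of members with a shared start site and in 55 of 65 windows of other ribosomal protein symbols, against 27.3% of all windows. An A at the start was found in 14 (17.5%), against 44.4% of all windows. RefSeq gives each start as an annotation, and the start used in these cells was not measured here.

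**Figure D3:**
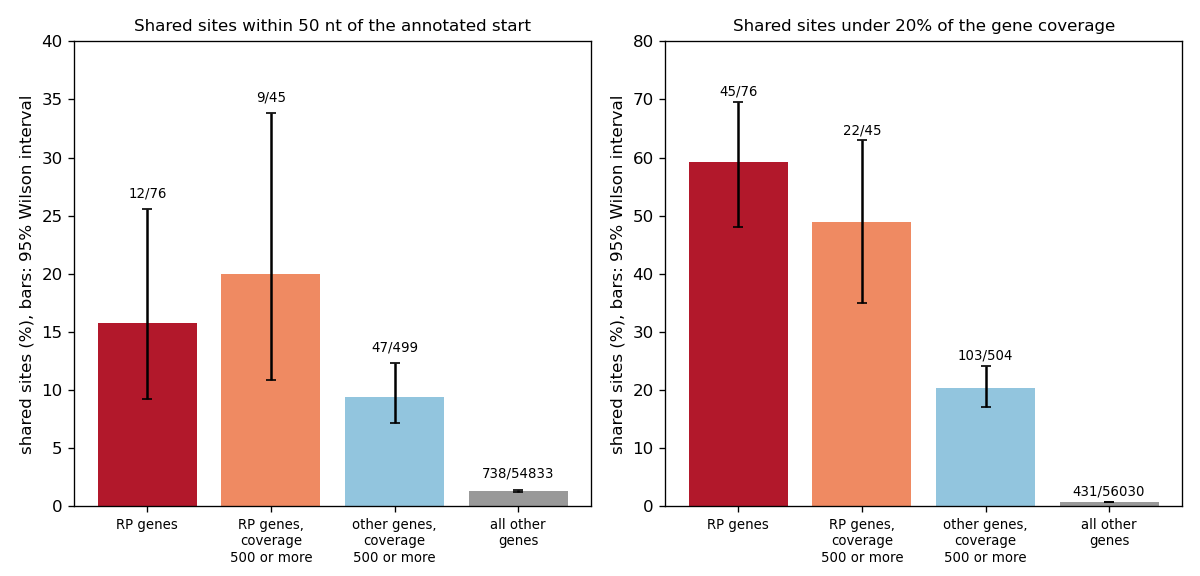
Bars give the percent of shared sites within 50 nt of the annotated start (left) and with under 20% of the gene coverage (right), with 95% Wilson intervals and the counts above, for ribosomal protein (RP) genes, those with a gene coverage of at least 500, other genes of that coverage, and all other genes. The members are highest in both panels, and other genes of high coverage lie between them and all other genes.

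Many ribosomal protein genes have processed pseudogenes, near-identical copies to which their reads can map. The lists held shared sites in 76 annotated ribosomal protein pseudogenes, 102 sites in all, and 22 of these sites had at least 300 reads in both replicates. In RPL29P4 the sites at chr6:117999469 and chr6:117999477 (plus strand), 8 nt apart, had 39.3% of 4956 and 39.4% of 5961 reads, and 75.4% of 6552 and 74.4% of 7717. RPL29 itself, at chr3:51993728 and chr3:51993720 (minus strand), also 8 nt apart and in the same order, had 42.4% of 224 and 35.6% of 264 reads, and 74.4% of 461 and 75.4% of 558. At these sites the copy thus had far more reads than its parent gene, at similar levels and the same spacing. The gene coverage of RPL29 in the authors' lists was 1964.4 in replicate 1 and 2153.2 in replicate 2.

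The spacing recurred in other copies. There were 12 pairs of pseudogene sites at most 100 nt apart whose parent had at least 2 shared sites, and each of the 12 had a pair of the same spacing and order in the parent. They came from RPL29, RPS24 and RPL13A, and pairs of 1 parent are not independent. RPS24P2 had 12.6% and 39.5% at 12 nt, where RPS24 had 11.0% and 37.0%, and RPL13AP25 had 11.4% and 60.5% at 24 nt, where RPL13A had 11.5% and 74.3%. Levels were not always alike: RPS24P8 had 21.6% at the site where RPS24 had 11.0%. Reads of parent and copy cannot be told apart in these lists, so the read counts of RPL29, RPS24, RPL3, RPL4, RPL27A, RPL13A, RPSA and RPL41, all with a copy among these 22 deep sites, are uncertain. Of the 24 parents, 8 had no listed site of their own, among them RPS25 and RPS27A. RPS25P6 had 11.7% of 1809 and 11.1% of 2236 reads, and RPS27AP11 had 21.4% of 885 and 21.4% of 988. A member without an entry may thus have its reads listed under another name.

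Other annotated genes lay over 10 of the 76 shared member sites. The highest member site, in RPS29 at chr14:49577721 (minus strand; 93.3% of 15 and 83.3% of 30 reads), lay within the annotated pseudogene RPL32P29, as did its other shared site. The sites of RPL31 at 37.6% and 72.6% lay within the span of TBC1D8. All 109 member sites whose gene has a promoter window were on the strand of that gene.

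Large- and small-subunit genes had like levels. The median over genes was 23.0% in 20 RPL genes (11.2% to 70.2%) and 22.5% in 12 RPS genes (11.5% to 63.5%). RPL genes held 56 of the 76 shared sites, with 9 of 20 genes at a single site, against 9 of 12 RPS genes. Of the 5 many-site genes 4 were RPL genes. No test was made of these differences between genes.

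Sites that a single replicate listed numbered 23 in replicate 1 and 27 in replicate 2. Their median level was 14.1%, 36 of 50 lay under 20%, and 8 members had no other kind. RPL22, whose protein also binds a viral RNA in infected cells, had 5 sites between 11.8% and 16.7% in replicate 1 and none in replicate 2. RPL39L, a paralog of RPL39 known from testis, had 84.0% of 25 reads in replicate 2 alone. RPL10, RPL17, RPL23A, RPS4X, RPS21 and RPS23 were the others.

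Set beside other genes in the same decile of gene coverage, members had a median level of 23.0% against 31.2%, with 12 members above and 20 below the median of their decile. They had a median of 1 shared site against 2, with 7 above and 18 below. The members' median was 2 when either library was taken alone, and other genes were not recounted that way. Over all genes with a shared site the medians were 46.6% and 4 sites. Within genes of a coverage of at least 500, the median level was 20.5% in 23 members and 27.0% in other genes, with 16 members below. Of the 32 members 30 lay above the 90th percentile of gene coverage (131.0), and the median coverage of all members was 880.0. The deciles therefore match depth only coarsely. Transcript length was not taken into account.

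Other genes of the translation machinery are given as background. Of 5 ribosomal paralogs outside the symbol rule all had a shared site: RPL7L1 had 8 at 44.1%, RSL1D1 had 4 at 53.2%, RSL24D1 had 3 at 27.0%, and RPL26L1 and RPL22L1 had 1 each at 23.1% and 15.6%. Of 20 other genes known or thought to begin with an oligopyrimidine tract 16 had a shared site, with a median level of 27.0% and a median of 3 sites. The most were in EEF1D (14 sites at 50.2%), a subunit of the factor that reloads elongation factor 1, and in EEF2 (10 at 28.6%), the translocation factor. EEF1A1, EIF2S3, EIF3L and TPT1 had 4 each. Of 22 ribosome assembly factors 18 had a shared site, with a median level of 38.5% and 3.5 sites. The most were in MDN1 (20 at 42.3%), RRP1B (18 at 49.3%) and BYSL (13 at 48.5%). Median gene coverage was 317.0 in the oligopyrimidine list and 69.1 in the assembly list, against 880.0 in ribosomal protein genes, so these medians compare genes of unlike depth.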

How the data were processed

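GLORI libraries of oligo(dT)-purified mRNA from wild-type HEK293T cells were deposited as 1 list of called sites for each of 2 replicates. Per the file headers, the authors give the count of A or G reads and of A reads at each site. The deposited fraction of A reads, printed here in percent as the level, matched those counts within 5.0e-06. Per the file headers, each gene has the authors' conversion fraction and coverage signal, and each site has the authors' p-value, raw and adjusted, not used further. Per the submitters' processing notes, the build was GRCh38 and tools included Bowtie, STAR, SAMtools and Trim Galore 0.6.6; the sources used here name no site caller. The lists start at 15 reads, 5 A reads and a level of 10%; replicate 1 has 72449 sites (5221660 reads) and replicate 2 has 81554 (6306522), totals that are not library depths. PCR copies were not told apart.

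Sites were joined by chromosome, position and strand with Python 3.11.15 and pandas 2.3.3. Fisher's exact test (two-sided, SciPy 1.17.1) ran on all shared sites with Benjamini-Hochberg adjustment at 0.05. It was tested on simulated data to which the limits of the lists were not applied. Levels of shared sites were averaged to give that of the gene. Gene spans are RefSeq's, GRCh38.p14; the 5' end follows the strand of the site, and exons were not analysed here. Pseudogenes were taken by symbol and annotated biotype, which left out RPS19BP1 and RPSAP58. Sites were named by depth (single-site genes by the 8 deepest, and all sites with 300 reads), by number (genes with at least 4), by distance from the start (within 5 nt) and by level. RPL23A, RPL22, RPL39L and the start sites beyond 5 nt were chosen after their values were seen, as were the thresholds of 50 nt, 20% of the gene coverage and a gene coverage of 500. Members and lists were chosen with earlier results of these data known. A few named items are not reported here.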

Additional observations from a re-analysis of the deposited data

How the results depend on the processing

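No paired analysis was possible because the labels give 1 group. Fisher's exact test, the chi-square test and a minimum of 50 reads each called 0 shared member sites as different between replicates after adjustment. The 76 shared sites became 49 at a minimum of 50 reads and 126 when sites of either replicate counted. Leaving out sites under 20% of the gene coverage, a choice made after seeing the data, left 31 sites in 17 of the 32 genes. The median gene level of 23.0% was 21.4% at a minimum of 30 reads, 39.5% for sites of at least 20%, 20.2% with sites of either replicate, 21.5% from pooled reads and 20.9% to 24.1% with 1 replicate left out. Without sites within 50 nt of the annotated start, also chosen after seeing the data, it was 29.5% and the median number of sites was 2 in place of 1. That number was also 2 with sites of either replicate and with either replicate left out. The share of genes with 1 site, 56.2%, was 32.5% with sites of either replicate and 37.8% to 38.9% with 1 replicate left out. The share of sites in both lists, 60.3%, was 78.5% at levels of at least 20%. Against other genes in the same decile of gene coverage the difference of median levels, members minus others, was -8.17 points. It was -6.48 with 20 coverage classes and -6.18 at a minimum of 50 reads, where 10 members lay above and 13 below. It was -6.5 at a gene coverage of at least 500, a choice made after seeing the data. Levels under 10%, sites under 15 reads and transcripts that are not listed cannot be seen in these lists.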
